A study of Mus musculus with 30 samples.

Results

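The genes described here are 36 genes of collagens, other matrix proteins and stromal cell markers, chosen by name from the 50686 genes counted in each library. All 36 were found by matching the Ensembl identifiers of the files to symbols, and all 36 passed the filter on low counts. RNA was sequenced from 30 libraries of osteoclast cultures of C57BL/6J mice, 3 in each of 10 groups. Bone marrow-derived macrophages were cultured with 25 ng/ml M-CSF and 100 ng/ml RANKL, in α-MEM with 10% fetal bovine serum, for 2 days or until large multinucleated cells appeared. Multinucleated cultures of Terc-/- mice (KO) came from mice of 6 and 1 months, each once with no tag in the sample title and once with the tag 519. Multinucleated cultures of WT mice came from mice of 1, 6 and 20 months, and the 1-month age also held a group whose titles carry a tag starting with D1. Cultures of 2 days came from WT mice of 20 and 6 months. Terc encodes the RNA component of telomerase, and the deletion was carried in all KO cells. All groups shared the strain, cytokines and medium. The labels do not explain the tags, so tagged libraries stand as their own groups (set 519 and set D1). The labels do not say whether the 3 libraries of a group came from separate animals or cultures, so p-values measure only the spread between these libraries, which may be technical.

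Bone marrow holds blood cells and a stroma of fibroblast-like, reticular and perivascular cells. Stromal cells lay down fibrillar collagens, basement membrane and proteoglycans, and they secrete signals such as CXCL12 that hold blood progenitors in the marrow. Osteoclasts are multinucleated cells of the macrophage lineage that resorb bone matrix, and type I collagen is the main protein of the matrix they resorb. In libraries of whole cultures, fewer cells of a type and less RNA per cell cannot be told apart.

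Several members lie side by side in the genome (GRCm38, coordinates 1-based). Col4a1 on the minus strand (chr8:11198423-11312826) and Col4a2 on the plus strand (chr8:11312805-11449287) start head to head and share 22 bases of exon. Col3a1 (chr1:45311538-45349706, plus strand) and Col5a2 (chr1:45374321-45503282, minus strand) are 24614 bases apart. Col6a2 and Col6a1 are 85161 bases apart on chromosome 10, and Dcn and Lum are 46984 bases apart on the same chromosome. The letters shown next are from RefSeq on GRCm38.p6. They give the start shared by Col4a1 and Col4a2 and the bases before the starts of Col3a1 and Col18a1. Col3a1, a fibrillar collagen, was higher in WT at 6 months than in untagged WT at 1 month, but lower than in set D1. The levels of Col18a1 ran against most other members. Capitals mark matches, on either strand, to any of the 4 motifs named after the sequences.
Col4a1 and Col4a2, chr8:11312805-11312826, plus strand: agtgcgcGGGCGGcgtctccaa
Col3a1, chr1:45311388-45311537, plus strand: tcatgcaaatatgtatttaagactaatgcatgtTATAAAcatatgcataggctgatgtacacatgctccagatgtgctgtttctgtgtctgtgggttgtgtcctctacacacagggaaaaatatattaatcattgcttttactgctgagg
Col18a1, chr10:77166549-77166680, minus strand: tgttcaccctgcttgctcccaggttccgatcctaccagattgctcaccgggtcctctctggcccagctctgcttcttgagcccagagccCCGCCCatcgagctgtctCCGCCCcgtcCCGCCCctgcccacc
RefSeq windows of 250 bases before to 50 after the start were found for 22 members. The motif GGGCGG was present in 15 members (68.2%) and in 38.2% of all genes with a window. The motif CCAAT was present in 6 members (27.3%) and in 41.1% of genes. The motif TATAAA was present in 3 members (13.6%) and in 15.7% of genes, and the motif TGANTCA in 2 members (9.1%) and in 9.0% of genes. A match is a description of the letters only.

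Library totals ranged from 4269798 to 12987993 counts in set 519 and from 13182063 to 25147975 counts elsewhere. Terc had 0 counts in the 12 KO libraries and 5 counts over the 18 WT libraries, too few at this depth to check the labels. Y-linked genes had counts in 27 libraries and 0 counts in the 3 libraries of set D1, so sex and title set cannot be told apart in that group. Replicate 1 of untagged WT at 1 month differed more from the other libraries of its group (chi-square per degree of freedom 17.5 and 21.2) than they did from each other (3.21), and replicate 2 of set 519 KO at 1 month likewise (10.1 and 6.60, against 1.33). Without the first, KO against WT at 1 month had 23 members higher and 2 lower and WT at 6 against 1 month 31 and 2. Without the second, set 519 KO against WT at 1 month had 15 higher and 10 lower. With all libraries, 20.7% of all genes were called higher and 20.8% lower in KO against WT at 1 month. These shares were 31.2% and 32.5% in WT at 6 against 1 month, and 27.2% and 29.8% in set 519 KO against WT at 1 month. The largest value of any pair, 22.3, was between replicates 1 and 2 of untagged KO at 1 month, whose other pairs had 9.42 and 9.54. Without replicate 1 of that group, the median log2 fold change of members was 0.51 in KO against WT at 1 month. It was 0.12 in untagged KO at 6 against 1 month. The cultures also differed in osteoclast genes. The summed level of 10 osteoclast markers was 27316 ± 683 CPM (counts per 1e6 of TMM-scaled library size) in set 519 KO at 6 months, 7458 ± 688 in set 519 KO at 1 month, 2627 ± 149 in untagged KO at 6 months and 713 ± 35 in untagged KO at 1 month (SD, n = 3 each). It was 45243 ± 1216 CPM in set D1 WT at 1 month and 2435 ± 65.4, 21706 ± 855 and 23908 ± 839.6 in the other multinucleated WT groups at 1, 6 and 20 months. The 2-day WT cultures had 4754 ± 79.2 CPM at 20 months and 3956 ± 317 at 6 months. The untagged 1-month groups and untagged KO at 6 months, labelled multinucleated, were below the 2-day cultures in these markers.

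Matrix genes were expressed in every group, and they were highest in 2-day WT cultures at 6 months and in set D1. The 36 members summed to 2080.5 ± 52.6 CPM in set 519 KO at 6 months, 2605 ± 36.1 in set 519 KO at 1 month, 3289 ± 29.3 in untagged KO at 6 months and 2682 ± 284 in untagged KO at 1 month. Set D1 WT at 1 month had 11279 ± 699 CPM. The other multinucleated WT groups had 2249 ± 76.2, 5398 ± 611 and 8901 ± 559 CPM at 1, 6 and 20 months, and the 2-day WT cultures had 10884 ± 176 at 20 months and 16916 ± 665 at 6 months. Fn1 at 3650 ± 401 CPM and Thbs1 at 3373 ± 282 made up the largest parts of the sum in 2-day WT at 6 months. The 6 fibrillar collagens summed to 3859 ± 207 CPM in set D1, against 3757 ± 128 in 2-day WT at 6 months, with overlapping libraries. The highest group was 2-day WT at 6 months for 23 members and set D1 for 11. It was KO at 1 month for Igfbp4 and KO at 6 months for Col18a1. The lowest group was set 519 KO at 6 months for 16 members and untagged WT at 1 month for 11. In 27 of the 35 members with counts in each group, the highest group mean was more than 10 times the lowest. This ratio ran between 3.25 for Igfbp4 and 86.3 for Cxcl12 over 35 members, and none is given for Lum, which had 0 counts in its lowest group. Per kilobase of exon, in the group where each was highest, Thbs1 reached 555 RPKM, Fn1 312, Sparc 251 and Col1a1 208, while Pdgfra reached 1.05 RPKM and Lum 0.473. Lum, the proteoglycan lumican, was near the detection limit, with 0 counts in 17 libraries. Only in set D1 was its mean above 1 CPM, at 1.16 ± 0.236 CPM.

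**Figure D1:**
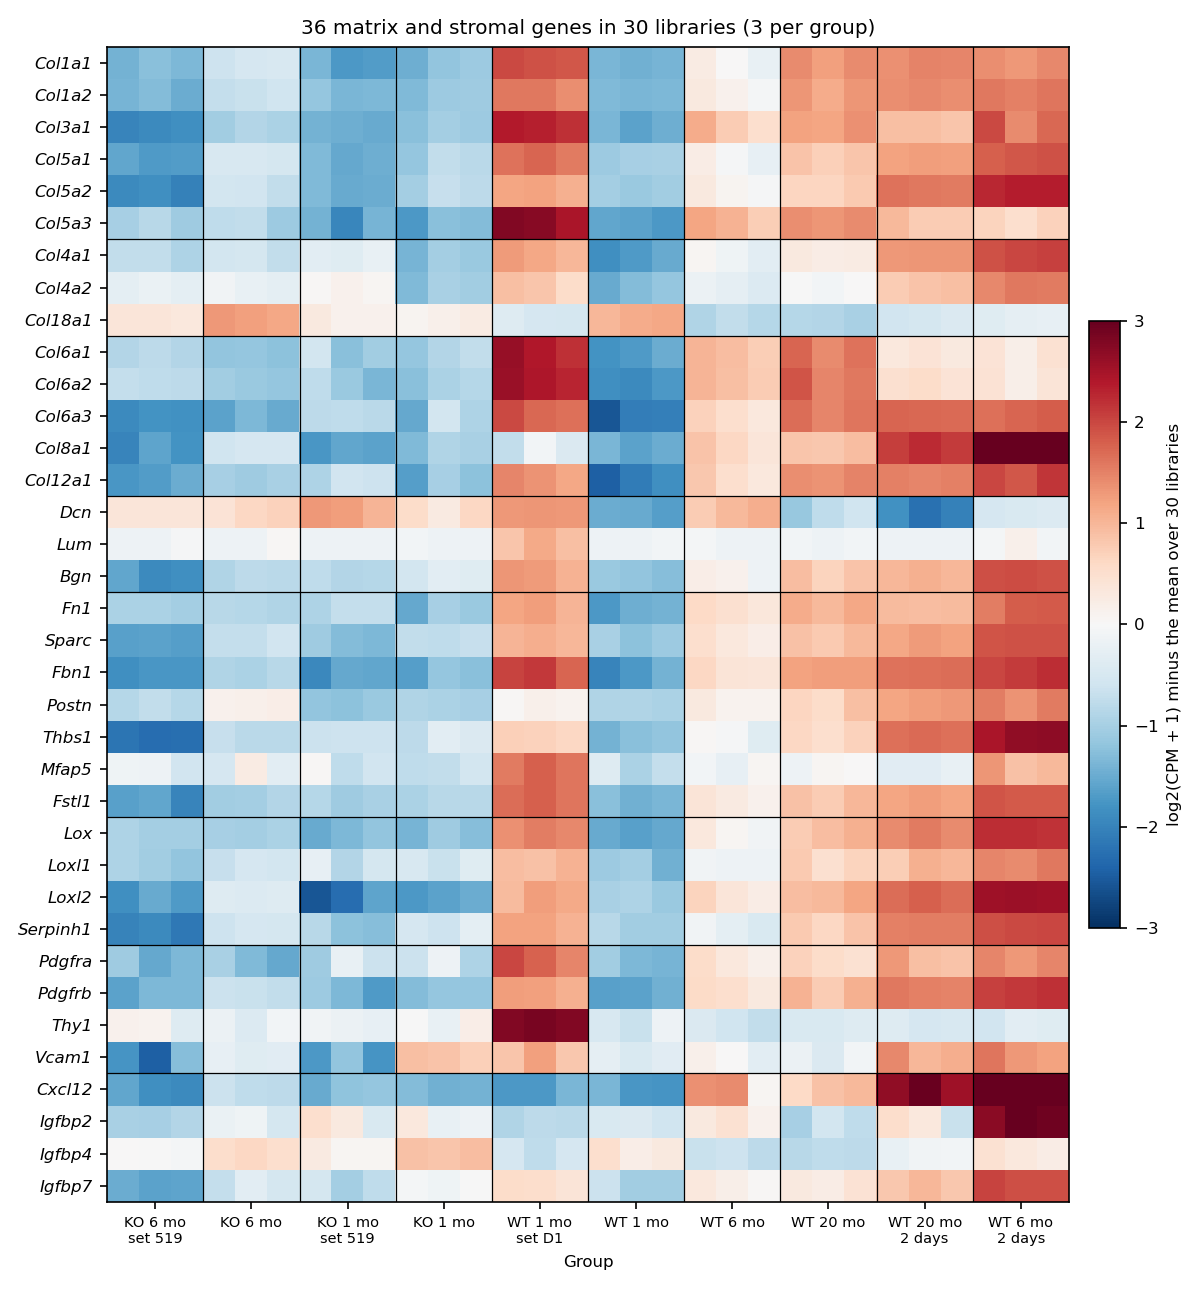
Level of each of the 36 genes (rows, ordered by role, lines between roles) in 30 libraries (columns, 3 per group), as log2(CPM + 1) minus the gene's mean over all libraries. Colours stop at a difference of 3 either way. Most genes are red in set D1, in 2-day WT and in multinucleated WT at 20 months, and blue in KO and in untagged WT at 1 month; Col18a1 and Igfbp4 run the other way in the multinucleated groups.

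Across the ages of untagged WT mice, most matrix genes were higher at 6 than at 1 month and higher again at 20 months in multinucleated cultures, but the first step depended on which 1-month WT libraries were used. Against untagged WT at 1 month, 31 members were higher and 2 lower at 6 months, with a median log2 fold change of 1.48; 31.2% of the 15310 genes tested were called higher and 32.5% lower. Against set D1 WT at 1 month, 3 members were higher and 31 lower at 6 months, with a median of -1.16; 30.2% of genes were called higher and 27.6% lower. Age, title set and sex cannot be told apart in that contrast, which was added after seeing the data. With both 1-month WT sets pooled, 3 were higher and 4 lower, with a median of -0.49; 9.38% of genes were called higher and 12.9% lower. At 20 against 6 months, 24 were higher and 2 lower, with a median of 0.59; 7.39% of genes were called higher and 6.90% lower. The median over all genes lay between -0.03 and 0.04 in every one of the 18 comparisons, and at -0.05 when KO against WT at 1 month was pooled over title sets. The values next given are those of untagged WT, where all 6 fibrillar collagens were higher in both steps. Col1a1, a chain of type I collagen, had 137, 131 and 136 CPM at 1 month, 428, 363 and 310.0 at 6 months and 962, 848 and 967 at 20 months. The 3 ages did not overlap in untagged WT, while set D1 at 1 month, with 1412, 1361 and 1315 CPM, lay above all of them. The log2 fold change was 1.45 ± 0.09 (SE) at 6 against 1 month and 1.34 ± 0.09 at 20 against 6 months. Col5a3, a minor chain of type V collagen, had 4.95, 4.77 and 4.3 CPM at 1 month, 38.4, 35 and 28.2 at 6 months and 44.7, 42.3 and 45.4 at 20 months. Its log2 fold change was 2.86 ± 0.13 (adjusted p = 3.1e-19, edgeR) at 6 against 1 month and 0.39 ± 0.10 at 20 against 6 months.

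The chains of type VI collagen, which forms beaded microfilaments around cells, followed the same order in untagged WT, and set D1 at 1 month was above the 20-month mean for each. Col6a3 had 12.4, 17.9 and 18.2 CPM at 1 month, 127, 110.4 and 97.8 at 6 months and 252, 219 and 241 at 20 months, with 313, 262 and 246 in set D1 at 1 month. The log2 fold change at 6 against 1 month was 2.78 ± 0.15 for Col6a3, 2.82 ± 0.12 for Col6a2 and 2.61 ± 0.12 for Col6a1. Col12a1, which binds to the surface of fibrils, had a change of 2.71 ± 0.13 in that step. Among the glycoproteins, all 7 were higher at 6 months, and Fn1 (fibronectin) had 329, 398 and 407 CPM at 1 month, 1647, 1525 and 1378 at 6 months and 2347, 2138 and 2441 at 20 months. The 4 genes of collagen folding and crosslinking were higher in both steps. Lox, which crosslinks collagen and elastin, changed by 1.68 ± 0.09 and then by 0.83 ± 0.08. Cxcl12 had 2.3, 1.53 and 1.52 CPM at 1 month, 21.2, 21.7 and 7.89 at 6 months and 11.8, 14.7 and 15.8 at 20 months. One of the 6-month libraries was well below the others, and the step at 20 against 6 months did not pass the test, at -0.24 ± 0.22. The PDGF receptor gene Pdgfra had 0.637, 0.334 and 0.287 CPM at 1 month, 3.97, 3.2 and 2.76 at 6 months and 4.5, 3.97 and 3.69 at 20 months.

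A few members departed from that order in untagged WT. Decorin (Dcn), a small proteoglycan that binds collagen fibrils, had 5.63, 5.53 and 4.87 CPM at 1 month, 30.7, 35.4 and 38.5 at 6 months and 7.44, 9.92 and 11.4 at 20 months. Among these 3 groups it was highest at 6 months, though below set D1 at 1 month (45.2 ± 0.422 CPM), with log2 fold changes of 2.71 ± 0.12 at 6 against 1 month and -1.86 ± 0.11 at 20 against 6 months. Col18a1, a basement membrane collagen and the source of endostatin, had 436, 476 and 490.3 CPM at 1 month, 115, 131 and 119 at 6 months and 121, 118 and 110.2 at 20 months. It and Igfbp4, which binds insulin-like growth factors, were the 2 members lower at 6 than at 1 month in untagged WT, at -1.94 ± 0.06 and -1.04 ± 0.07. Igfbp2, the other member lower at 20 than at 6 months, changed by -2.28 ± 0.42 at levels of 2.20 CPM or less. The osteoclast markers also moved between untagged WT at 6 and 1 month: all 10 were higher at 6 months (median log2 fold change 3.20), and 7 of 10 tested macrophage markers were lower and 1 higher. Their part in the matrix result was not tested.

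**Figure D2:**
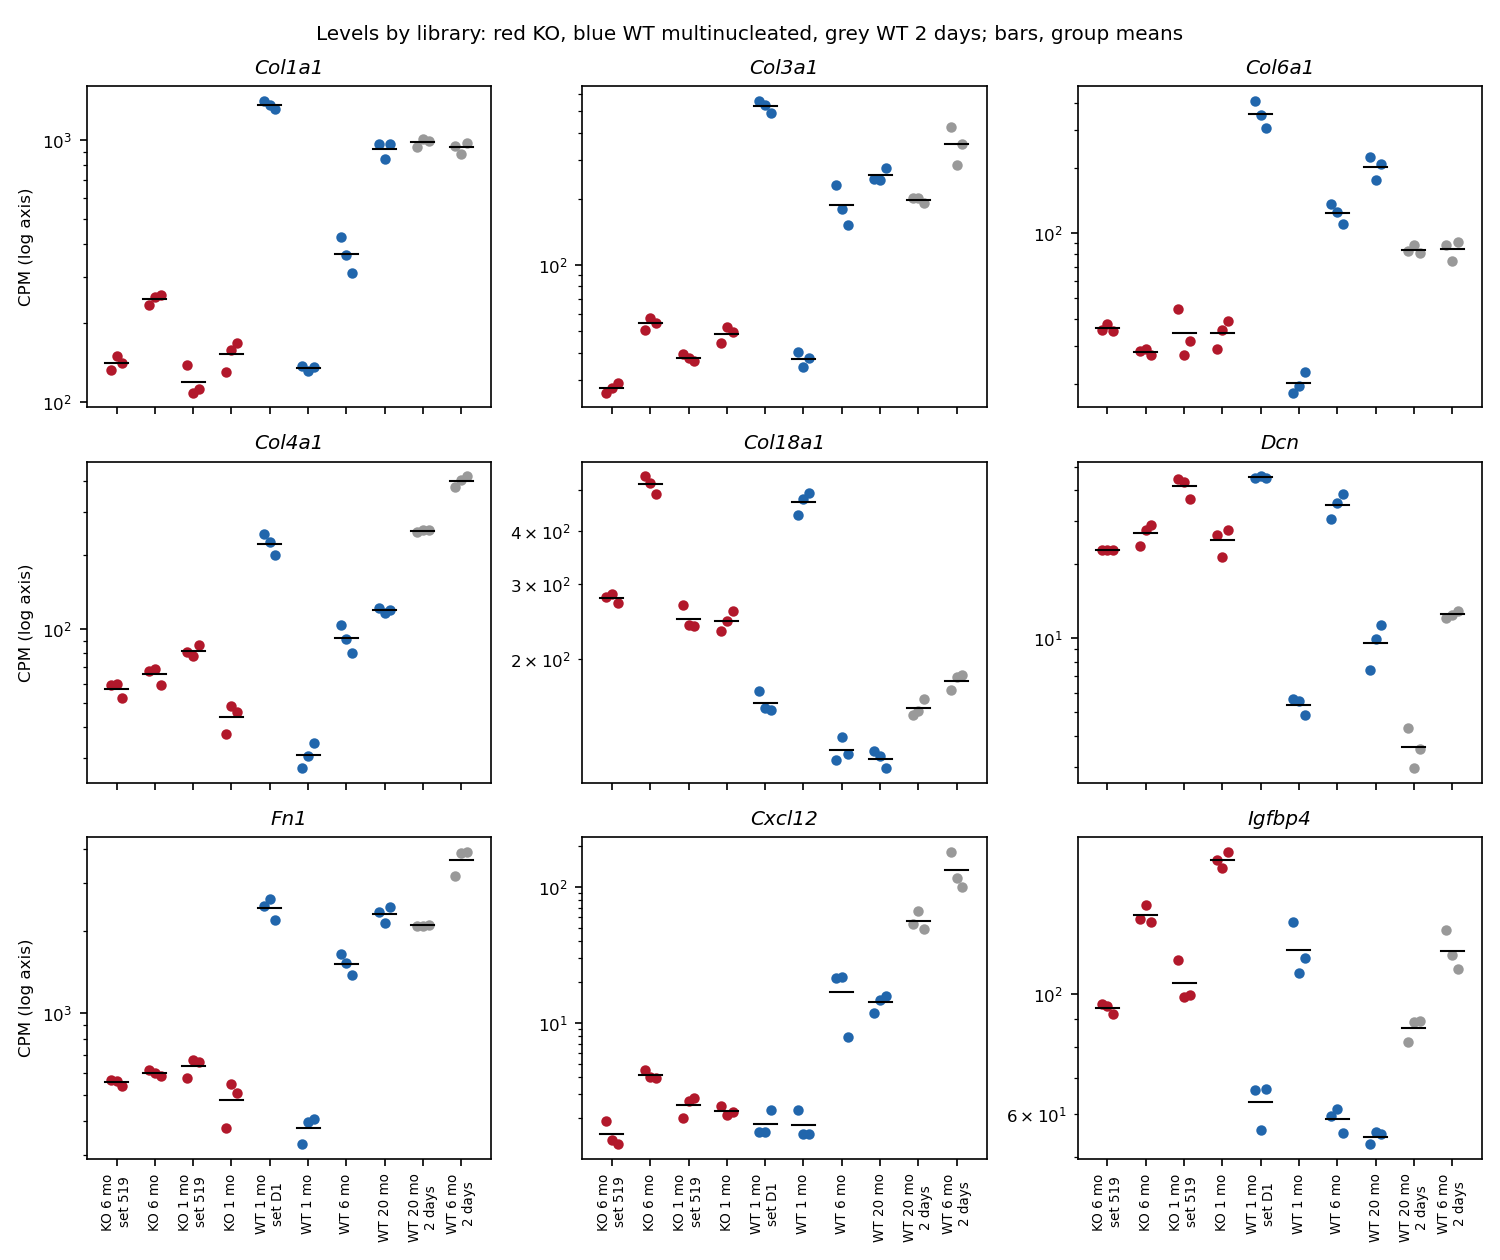
CPM on a log axis for 9 members in each library (points; red KO, blue multinucleated WT, grey 2-day WT), with group means as bars. Col1a1, Col3a1, Col6a1, Col4a1 and Fn1 climb across untagged WT at 1, 6 and 20 months; set D1 at 1 month is above the 20-month mean in all 5. Dcn is highest at 6 months among the 3 untagged groups, and Col18a1 and Igfbp4 are highest at 1 month.

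In 2-day WT cultures most members were lower at the older age. At 20 against 6 months, 26 members were lower and 0 higher by edgeR's quasi-likelihood test, with a median log2 fold change of -0.65; 11.3% of genes were called lower and 7.48% higher. At an unadjusted p under 0.05, 29 were lower and 0 higher, and DESeq2 also called 0 higher. Thbs1 (thrombospondin, a matrix protein that activates latent TGF-beta) had 1739, 1795 and 1754 CPM at 20 months, against 3048, 3529.5 and 3542 at 6 months. Cxcl12 had 52.7, 65.9 and 48.5 CPM at 20 months, against 179, 115 and 99.8 at 6 months, and the groups did not overlap. Igfbp2 had 2.33, 1.89 and 0.456 CPM at 20 months, against 14.1, 18.6 and 16.6 at 6 months, with the largest change among members that passed the test, -3.45 ± 0.26. Neither of the type I collagen chains passed the test, with Col1a1 at 0.07 ± 0.09 and Col1a2 at -0.16 ± 0.07, nor did any of the 3 type VI chains. Pericyte and smooth muscle markers moved with this step, with 6 of 10 lower and 0 higher by edgeR (0 also at an unadjusted p under 0.05), and their sum was 1017 ± 36.4 CPM at 20 months, against 2365 ± 186 at 6 months. Of the osteoclast markers, 6 of 10 were higher at 20 months. Their part in the result was not tested. The test of the difference between the age steps of the multinucleated and 2-day cultures called 28 members higher and 0 lower, with a median of 1.26; 7.52% of genes were called higher and 4.86% lower. At an unadjusted p under 0.05 it gave 30 higher and 0 lower, and DESeq2 gave 27 and 0. The largest were Mfap5, a microfibril protein, at 1.90 ± 0.36, Bgn (biglycan) at 1.67 ± 0.11, Thbs1 at 1.65 ± 0.12 and Lox at 1.56 ± 0.11.

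Multinucleated cultures had less matrix RNA than 2-day cultures at both ages. At 6 months, 30 members were lower and 4 higher in multinucleated cultures, with a median log2 fold change of -1.59; 27.4% of genes were called lower and 23.4% higher. At 20 months, 23 were lower and 5 higher, with a median of -0.40; 26.9% of genes were called lower and 25.4% higher. Col8a1, a network-forming collagen, had 50.9, 43.4 and 35.8 CPM in multinucleated cultures at 6 months, against 308, 266 and 278 in 2-day cultures. Thbs1 had 569, 545 and 431 CPM in multinucleated cultures at 6 months, against 3048, 3529.5 and 3542 in 2-day cultures. Col1a1 at 20 months did not pass the test, at -0.08 ± 0.09, against -1.35 ± 0.09 at 6 months. The members higher in multinucleated cultures at 6 months were Dcn at 1.48 ± 0.11, Col6a2 at 0.57 ± 0.10, Col6a1 at 0.55 ± 0.11 and Col5a3 at 0.39 ± 0.11; the same 4 and Col3a1 were higher at 20 months. The pericyte and smooth muscle markers moved with stage: 9 of 10 were lower at 6 months and 8 of 10 at 20 months. Their sum was 289.8 ± 35.3 CPM in multinucleated cultures at 6 months, against 2365 ± 186 in 2-day cultures, mostly Acta2, a smooth muscle actin. At 20 months it was 429 ± 7.84 CPM in multinucleated cultures, against 1017 ± 36.4 in 2-day cultures. None of these 10 markers was under 1 CPM in every library, and their part in the matrix result was not tested.

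Between genotypes, matrix genes were lower in KO at 6 months, while the direction at 1 month depended on which WT libraries were used. At 6 months there was no tagged WT group, so that dependence could not be checked there. In untagged cultures at 1 month, 26 members were higher and 2 lower in KO than in WT, with a median log2 fold change of 0.42; 20.7% of genes were called higher and 20.8% lower. At 6 months, 3 were higher and 28 lower in KO, with a median of -0.81; 30.5% of genes were called higher and 29.5% lower. With both KO sets pooled against both WT sets, 2 members were higher and 24 lower at 1 month, with a median of -1.48; 15.3% of genes were called higher and 18.1% lower. KO against set D1 WT at 1 month gave 3 higher and 31 lower, with a median of -2.44, and 38.2% of genes were called higher and 35.5% lower. Set D1 also differs from KO in title set and Y-linked counts, so genotype, set and sex cannot be told apart there. The pooled contrast includes the same set D1 libraries. Dcn had the largest change at 1 month, with 26.3, 21.5 and 27.6 CPM in KO, against 5.63, 5.53 and 4.87 in untagged WT, a log2 fold change of 2.24 ± 0.12 (adjusted p = 3.3e-16, edgeR). Set D1 WT had 44.9, 45.7 and 45 CPM of Dcn, above the KO libraries. Vcam1, an adhesion receptor of stromal and endothelial cells, had 12.8, 12.3 and 11.1 CPM in KO, against 5.14, 4.39 and 4.79 in untagged WT and 12.1, 16.2 and 11.8 in set D1 WT. The KO libraries did not overlap untagged WT but overlapped set D1. Col6a3 had 26.5, 53.4 and 40.5 CPM in KO at 1 month, against 12.4, 17.9 and 18.2 in untagged WT, and the 3 KO libraries were widely spread. Col1a1 at 0.17 ± 0.09 and Col5a1 at 0.12 ± 0.09 did not pass the test at that age. The 2 members lower in KO were Col18a1 at -0.93 ± 0.06 and Loxl2, a lysyl oxidase-like enzyme, at -0.63 ± 0.12.

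At 6 months the fibrillar collagens were lower in KO as a group, with all 6 past the test. Col3a1 had 50.9, 57.2 and 54.7 CPM in KO, against 231, 180.2 and 153 in WT, a log2 fold change of -1.79 ± 0.11. Col6a1 had 28.4, 29 and 27.4 CPM in KO, against 136, 126 and 111 in WT, at -2.13 ± 0.12. Neither pair overlapped, and the other collagens outside the fibrillar and basement membrane groups were also lower, 5 of 5. Pdgfra had 0.737, 0.348 and 0.175 CPM in KO, against 3.97, 3.2 and 2.76 in WT, and Cxcl12 had 4.47, 4.0 and 3.94 CPM in KO, against 21.2, 21.7 and 7.89 in WT. The 3 members higher in KO were Col18a1 at 2.08 ± 0.06, Igfbp4 at 1.26 ± 0.07 and Thy1, a surface glycoprotein, at 1.62 ± 0.53, the last at levels under 1 CPM. Col18a1 had 537, 518 and 487 CPM in KO, against 115, 131 and 119 in WT. Col4a2 and Postn (periostin) did not pass, at 0.08 ± 0.08 and -0.01 ± 0.07. The test of the difference between the genotype effects at 6 and at 1 month called 2 members higher, Col18a1 and Igfbp4, and 28 lower, with a median of -1.52; 27.1% of genes were called higher and 21.6% lower. With set D1 as the WT group at 1 month, an alternative added after seeing the data, the same difference had 29 members higher and 3 lower. Its median was 1.28, and 19.5% of genes were called higher and 22.5% lower. Genotype, title set and sex cannot be told apart in that alternative. Osteoclast markers moved with genotype in untagged cultures, with 10 of 10 lower in KO at each age. Macrophage markers were higher in KO for 9 of 10 tested at each age, with 1 lower at 6 months. Their part in the matrix results was not tested.

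**Figure D3:**
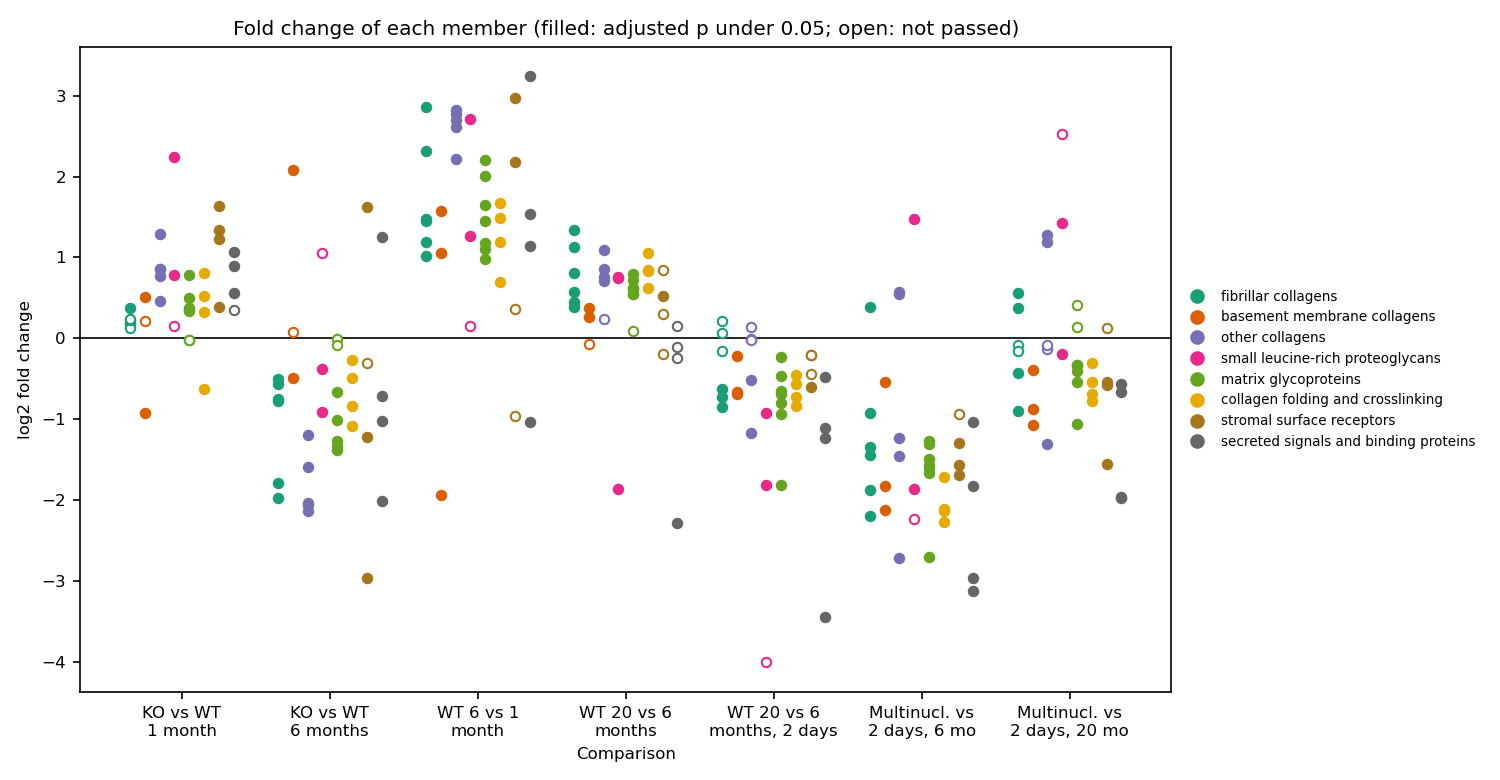
Log2 fold change of each member in 7 comparisons (points, coloured by role; filled where the adjusted p was under 0.05). In untagged cultures, KO against WT lies mostly above 0 at 1 month and mostly below 0 at 6 months, and WT at 20 against 6 months lies above 0 in multinucleated and below 0 in 2-day cultures for most members.

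Set 519 KO was compared with untagged WT, from which it also differs by title set, so genotype and set cannot be told apart. At 1 month, 14 members were higher and 7 lower in set 519 KO, with a median log2 fold change of 0.24; 27.2% of genes were called higher and 29.8% lower. At 6 months, 3 were higher and 30 lower, with a median of -1.82; 25.7% of genes were called higher and 25.9% lower. At 1 month the share of members called in either direction was near that of all genes. Both comparisons share their WT libraries with those of untagged KO. Col5a2, the second chain of type V collagen, had 46.6, 48.6 and 42.8 CPM in set 519 KO at 6 months and 120.0, 118 and 107 in untagged KO, against 219, 188 and 174 in WT. Both KO groups were below every WT library. Col4a1 and Col4a2 stood apart at 1 month. Col4a2 had 88.3, 94.7 and 89.8 CPM in set 519 KO and 34, 43.4 and 41.6 in untagged KO, against 29.8, 34.5 and 38 in WT.

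Set 519 and untagged KO differed from each other. Taking both directions together, the share of members called at 1 month was near that of all genes. At 1 month, 5 members were higher and 13 lower in set 519, with a median of -0.13; 21.9% of genes were called higher and 28.2% lower. At 6 months, 2 were higher, Col6a1 at 0.36 ± 0.14 and Col6a2 at 0.37 ± 0.13, and 23 lower, with a median of -0.80; 22.6% of genes were called higher and 26.5% lower. Without replicate 1 or replicate 3 of untagged KO at 6 months, or without any 1 library of set 519 KO at 6 months, 1 member was higher in place of 2. Vcam1 had 1.23, 2.22 and 1.17 CPM in set 519 KO at 1 month, against 12.8, 12.3 and 11.1 in untagged KO. All 10 osteoclast markers were higher in set 519 than in untagged KO at both ages, and their part in these results was not tested.

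Within KO, the age step also differed between title sets. At 6 against 1 month in untagged KO, 16 members were higher and 7 lower, with a median of 0.24; 19.7% of genes were called higher and 17.8% lower. In set 519 KO, 5 were higher and 16 lower, with a median of -0.28; 19.2% of genes were called higher and 13.2% lower. Leaving out replicate 3 of set 519 KO at 1 month left 2 higher, and leaving out replicate 3 or 4 at 6 months left 3. Thbs1 had 119.8, 113 and 114 CPM in set 519 KO at 6 months, against 357, 363 and 358 at 1 month. In untagged KO it had 342, 314 and 316 CPM at 6 months, against 323, 446 and 410.1 at 1 month, with replicate 1 the lowest of the younger group. Col18a1 had 537, 518 and 487 CPM in untagged KO at 6 months, against 233, 245 and 258 at 1 month. Postn had 117, 118 and 123 CPM at 6 months, against 56.9, 54.5 and 53.2 at 1 month, and the groups did not overlap. The test of the difference between the age steps (set 519 minus untagged) called 22 members lower and 0 higher by edgeR, with a median of -0.61; 5.79% of genes were called lower and 9.09% higher. At an unadjusted p under 0.05, 24 were lower and 1 higher, and DESeq2 called 23 lower and 0 higher. Osteoclast markers moved with age in both sets, with 10 of 10 higher at 6 months. Macrophage markers were lower at 6 months for 9 of 10 tested in untagged KO (0 higher by edgeR, and 0 at an unadjusted p under 0.05) and for 3 in set 519, where 1 was higher. Their part in these results was not tested.

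Set D1 WT had more matrix RNA than untagged WT at the same age. At 1 month, 32 members were higher and 2 lower in set D1, with a median log2 fold change of 2.77; 37.5% of genes were called higher and 36.9% lower. Col3a1 had 560.3, 537 and 494 CPM in set D1, against 40.4, 34.5 and 37.8 in untagged WT. Thy1 had 11, 11.5 and 10.9 CPM in set D1, against 0.245, 0.0954 and 0.573 in untagged WT, and no other group reached a mean of 1 CPM. The largest change among members of at least 5 CPM was that of Thy1, at 5.10 ± 0.30, followed by Pdgfra at 4.65 ± 0.30 and Col5a3 at 4.55 ± 0.13. Cxcl12 did not follow: it had 1.57, 1.56 and 2.3 CPM in set D1, against 2.3, 1.53 and 1.52 in untagged WT. Osteoclast markers moved with title set, with 9 of 10 higher and 0 lower in set D1 by edgeR (0 lower at an unadjusted p under 0.05). Of 10 macrophage markers tested, 3 were higher and 3 lower, and their sum was 19979 ± 578 CPM in set D1, against 28629 ± 1127 in untagged WT. Of 10 pericyte and smooth muscle markers, 7 were higher and 1 lower. These markers, the title set and the 0 Y-linked counts of set D1 move together, and their part in the result was not tested. The members lower in set D1 were Col18a1 at -1.57 ± 0.06 and Igfbp4 at -0.93 ± 0.07.

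Chains that assemble into one collagen were not in fixed proportion. Per kilobase of exon, Col1a1 over Col1a2 ran between 1.39 and 2.46 across the 30 libraries, with the highest group mean in set D1. Col6a1 over Col6a2 ran between 2.75 and 3.98. Col6a3 over Col6a1 varied most. It averaged 0.329 ± 0.0115 in multinucleated WT at 6 months, against 1.15 ± 0.145 in 2-day WT (SD, n = 3 each). At 20 months it averaged 0.429 ± 0.0209 in multinucleated WT, against 1.14 ± 0.0488 in 2-day WT. Every multinucleated library was below every 2-day library, with the highest multinucleated value at 0.610 in set 519 KO at 1 month. Col4a1 over Col4a2 was 0.780 ± 0.0452 in untagged KO at 6 months, against 1.15 ± 0.0629 in WT at 6 months, and the libraries did not overlap. At 1 month untagged KO was above untagged WT, with 0.987 ± 0.00897 against 0.800 ± 0.0135, and below set D1 WT, with 1.34 ± 0.0617. These ratios were not tested, and overlap with other genes touches few exon bases of these chains (at most 0.98%, in Col4a2). Among all members it was greatest in Fbn1 (fibrillin), where 20.14% of exon bases are shared with Gm9913 on the opposite strand. No option for strand is recorded.

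**Figure D4:**
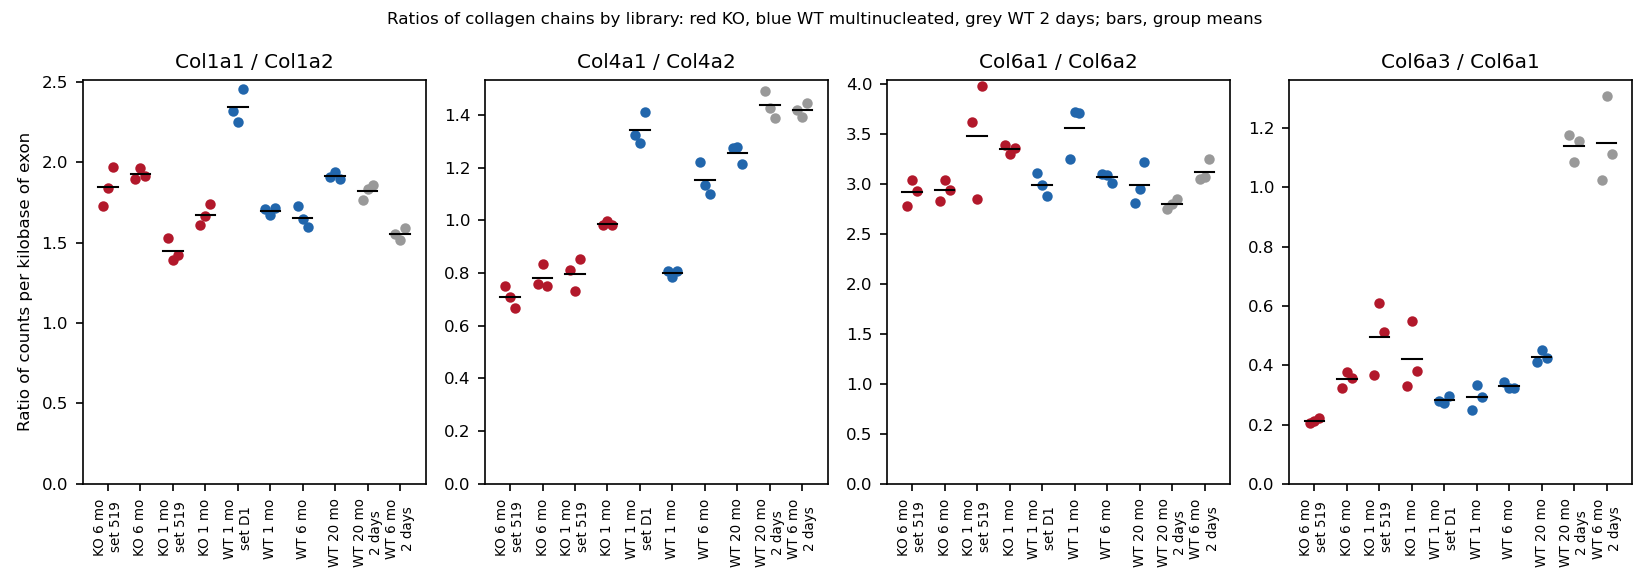
Ratio of counts per kilobase of exon between chains of type I, IV and VI collagen in each library (points; red KO, blue multinucleated WT, grey 2-day WT; bars, group means). Col6a3 over Col6a1 averages 1.14 in 2-day WT at 20 months and 1.15 at 6 months, and is at most 0.610 in every multinucleated library.

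Further genes of matrix biology were counted in the same way. The share of all genes called was 31.2% higher and 32.5% lower in untagged WT at 6 against 1 month. In KO against WT at 6 months it was 30.5% higher and 29.5% lower, and many of the counts of that comparison lie near it. In the WT comparison the counts higher lie above the share in each list, which was not tested for any list. Of the genes of collagen modification and secretion, 23 of 24 were tested, and 13 were higher and 5 lower in untagged multinucleated WT at 6 against 1 month, with a median of 0.32. In KO against WT at 6 months, 6 were higher and 9 lower, with a median of -0.12. Of 18 TGF-beta pathway genes, 10 were higher and 3 lower in WT at 6 against 1 month, and 4 higher and 7 lower in KO against WT at 6 months. Of 20 matrix receptors, 8 were higher and 8 lower in the first comparison, and 9 higher and 7 lower in the second. Of 14 matrix-degrading enzymes and inhibitors, 8 were higher and 3 lower in the first, and 6 higher and 5 lower in the second.

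The labelled cells are osteoclasts, and defining markers of stromal types were only partly present. Of 18 fibroblast and mesenchymal identity genes, 12 were tested and 6 were under 1 CPM in every library. The sum of this list lay between 740.2 ± 18.3 and 986 ± 77.7 CPM over the groups, most of it from gelsolin (Gsn), which macrophages also express. The sum therefore hides other genes of the list that varied widely. Across libraries, Cdh11 ran between 5.73 and 119 CPM, Nid1 between 14.5 and 200, and Pdpn between 20.2 and 169. Prrx1, a mesenchymal transcription factor, had 6.77 ± 0.85 CPM in KO at 6 months, against 18.9 ± 2.24 in WT, and 53.4 ± 7.0 in set D1 WT. Of 9 genes of CXCL12-abundant reticular cells and marrow adipocytes, 4 were under 1 CPM in every library. Among them, Lepr, the leptin receptor of marrow reticular cells, did not reach a mean of 1 CPM in any group. Adipoq (adiponectin) had 0 counts in 21 libraries. Other genes of that list were present. In their highest library, Ebf3 reached 8.58 CPM, Foxc1 8.297, Kitl 67.3 and Fabp4 70.01. Lpl was high in every library, between 1336 and 4293 CPM. By contrast, the adipocyte genes Plin1 and Cfd reached at most 0.154 and 0.0621 CPM, so Lpl and Fabp4 alone do not mark adipocytes here. The osteoblast list summed to 8.78 ± 0.269 CPM in the lowest group and 39.8 ± 1.48 in the highest, and 5 of its 12 genes were under 1 CPM in every library. The chondrocyte list summed to between 3.9 ± 0.982 and 85.4 ± 4.45 CPM. In their highest library, Col2a1 reached 86.9 CPM, Sox9 3.20 and Comp 2.57, and the other 4 genes stayed under 1 CPM. The endothelial list summed to between 73.4 ± 5.03 and 188 ± 7.13 CPM. Its Vwf reached 133 CPM, Eng 56.5 and Kdr 27.2 in their highest library. Pecam1 reached 2.45 CPM and Cdh5 2.60, and 3 of the 12 genes were under 1 CPM in every library. Neutrophil, erythroid and lymphocyte lists each had at least 6 genes under 1 CPM in every library. Whether stromal cells were carried into the cultures was not tested.

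**Figure D5:**
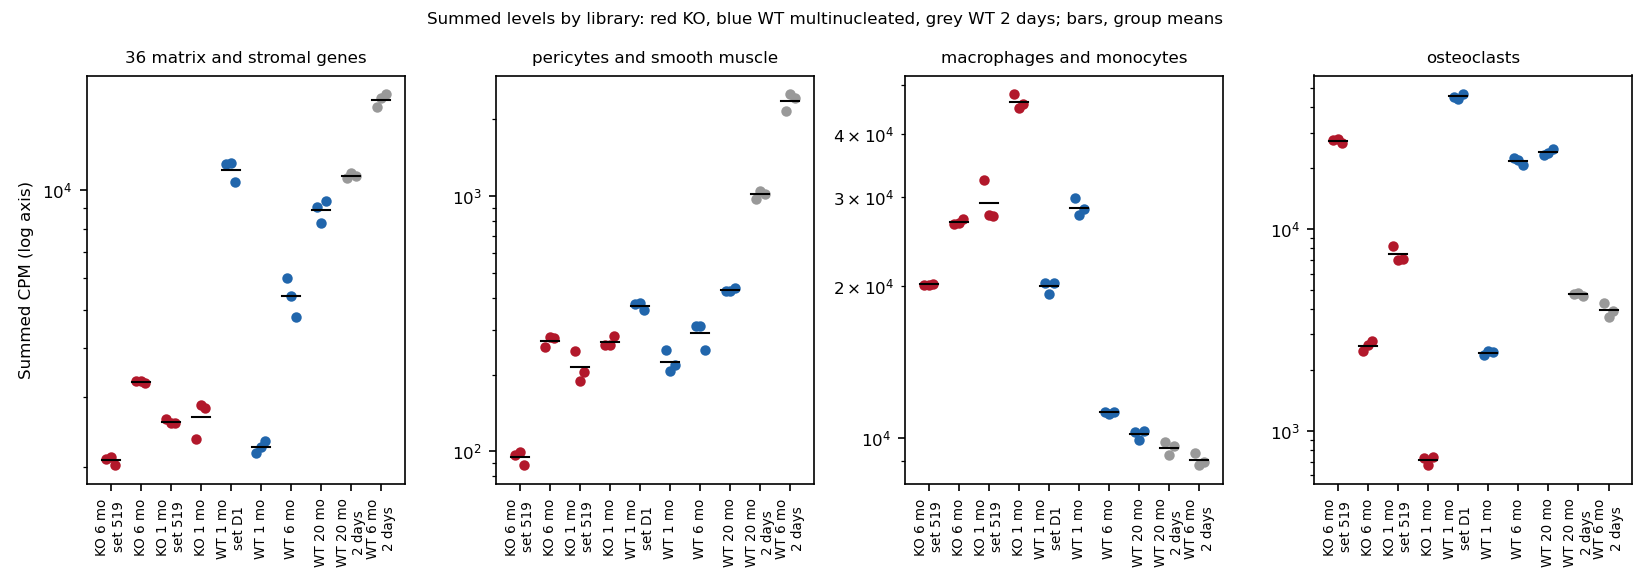
Summed CPM on a log axis of the 36 members and of 3 marker lists in each library (points; red KO, blue multinucleated WT, grey 2-day WT; bars, group means). The member sum and the pericyte and smooth muscle sum, most of the latter from Acta2, are both highest in 2-day WT at 6 months. Fn1 and Thbs1 are the largest parts of the member sum in that group. The osteoclast sum is highest in set D1.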

How the data were processed

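The authors deposited raw counts, 1 whole number for each gene in each library. Per the file headers, they were made with featureCounts 1.6.0 from STAR-sorted read pairs over Ensembl 88 exons of GRCm38, with no option for strand or multimapping reads. The submitters' processing notes name HTSeq and mm10, and the STAR version is not given in the sources used here. After filterByExpr left 15310 genes, edgeR's quasi-likelihood test (edgeR 4.0.16 in R 4.3.3, with limma 3.58.1) was run on TMM-scaled counts of the 30 libraries, with a coefficient for each group. Adjusted p-values are Benjamini-Hochberg over those genes, with a threshold of 0.05. Errors of fold changes are SE, computed as the log2 fold change over the root of F, and other errors are SD of 3 libraries. CPM are counts per 1e6 of TMM-scaled library size. The test was tried on simulated data. Replicates differed by more than sampling noise (chi-square per degree of freedom 1.28 to 22.3). Up to 8 members per comparison (4 for a test of a difference) were to be named by largest change at 5 CPM or more, plus those against most others; members named for other reasons were chosen after their values were seen. Alternatives covered scaling, filters, samples in the fit, title sets, a replicate block, left-out libraries and DESeq2 1.42.0. Members and lists were chosen with earlier results of these data known.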

Additional observations from a re-analysis of the deposited data

Results flagged for a closer look

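Of the results tested as a difference between effects, 3 stood out. The KO effect differed between 6 and 1 month, with 2 members higher and 28 lower, against 27.1% and 21.6% of all genes. On the log2 scale, Col6a3 was at -3.33, Col6a2 at -2.93, Col6a1 at -2.90, Col18a1 at 3.01 and Igfbp4 at 0.70. The age effect at 20 against 6 months differed between multinucleated and 2-day WT cultures, with 28 members higher and 0 lower. Of all genes, 7.52% were called higher and 4.86% lower. Mfap5 was at 1.90, Bgn at 1.67, Thbs1 at 1.65 and Lox at 1.56. The age effect in KO differed between set 519 and untagged cultures, with 0 members higher and 22 lower, against 9.09% and 5.79% of all genes. Thbs1 was at -1.36, Col4a2 at -1.26, Col12a1 at -1.22 and Col4a1 at -1.08. The first uses untagged WT at 1 month and turned round with set D1 as the WT group at 1 month. It then had 29 members higher and 3 lower, against 19.5% and 22.5% of all genes. No group had the 4 libraries that the test for a single outlying sample needs.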

How the results depend on the processing

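Of 534 recomputed counts of members higher or lower, 512 stayed within 1.5 times, and of 2286 recomputed fold changes of named members, 2244 kept direction and call, 20 kept direction and lost the call and 22 changed sign. Pooling the title sets turned KO against WT at 1 month round: 2 higher, 24 lower, median -1.48, with Col6a2 at -2.61, Col6a3 at -1.77 and Col12a1 at -1.43 called lower. Loxl1 (-0.83), Vcam1 (-0.31) and Igfbp7 (-0.32) changed sign and lost their calls, and Col18a1 (-0.34) and Dcn (0.40) lost their calls. At 6 months pooling gave a median of -1.23. Settings chosen after seeing the data turned 2 other results. WT at 6 months against set D1 had 3 higher and 31 lower, median -1.16, with Col5a3 at -1.69, Col6a2 at -1.56, Col6a1 at -1.52, Col3a1 at -1.50, Col6a3 at -1.29, Col12a1 at -0.77 and Dcn at -0.37. Against both 1-month WT sets pooled it had 3 higher and 4 lower, median -0.49, with Col5a3 at -0.75, Col6a2 at -0.62, Col6a1 at -0.60, Col3a1 at -0.60 and Col6a3 at -0.37, none past the test. Genotype by age with set D1 had 29 higher and 3 lower, median 1.28, with Col6a2 at 1.45, Col6a1 at 1.23 and Col6a3 at 0.75, and Igfbp4 at -0.23 without a call. The cause was not tested. Shares of all genes called under these settings are given with the comparisons above.
With library totals only, medians were 0.34 and -0.89 in KO against WT at 1 and 6 months, -1.93 in set 519 KO against WT at 6 months, 1.58 in WT at 6 against 1 month, 0.34 in KO at 6 against 1 month, -2.53 in KO against set D1, -0.014 in set 519 against untagged KO at 1 month and -0.76 in the age step in KO by title set. That scaling put the median of all genes at -0.10 in KO against WT at 6 months, -0.12 in set 519 KO against WT at 6 months, 0.11 in WT and 0.11 in KO at 6 against 1 month, and -0.13 in the age step in KO by title set. It gave 70.9% of all calls higher in KO at 6 against 1 month, in place of 52.4%, 36.4% in KO against WT at 1 month, in place of 49.9%, and 25.0% in the age step in KO by title set, in place of 61.1%. At 5 CPM or more in 3 libraries, medians were 0.34 in set 519 KO against WT at 1 month, -0.37 in set 519 KO at 6 against 1 month and -1.66 for genotype by age, which was -1.61 with only the compared groups and -1.62 without sets 519 and D1, a setting chosen after seeing the data. DESeq2 gave 0.37 in set 519 KO against WT at 1 month. In set 519 KO at 6 against 1 month, 3 members were higher under RLE scaling, library totals only and only the compared groups. Fitting only the compared groups gave 1 higher in 2-day WT at 20 against 6 months, and no filter gave 1 higher in the age step in KO by title set.
Leaving out 1 library at a time, medians ran between 0.39 and 0.51 (KO against WT, 1 month), -0.90 and -0.70 (6 months), 0.14 and 0.29 (set 519 KO against WT, 1 month), -1.90 and -1.74 (6 months), 1.37 and 1.57 (WT 6 against 1 month), 0.49 and 0.67 (WT 20 against 6 months, multinucleated), 0.12 and 0.31 (KO 6 against 1 month), -1.68 and -1.57 (multinucleated against 2 days, 6 months), -2.50 and -2.33 (KO against set D1), -0.25 and -0.13 (set 519 against untagged KO, 1 month), -1.61 and -1.44 (genotype by age), 1.17 and 1.35 (stage by age) and -0.67 and -0.50 (age in KO by title set). Counts higher ran between 2 and 6 in set 519 KO at 6 against 1 month, 1 and 2 in set 519 against untagged KO at 6 months and 0 and 1 in the age step in KO by title set.
Same-numbered libraries did not deviate together (correlation between -0.15 and 0.26 over 32 pairs, 1 above 0.1), so the numbers were not read as pairs; with the number as a replicate block, KO against WT at 1 month had 24 members higher and 2 lower, and no count moved by over 1.5 times. Depth limits Lum, Thy1, Pdgfra and Igfbp2, above all in set 519.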
